A study of Mus musculus with 45 samples.

Results

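A set of 10 genes that regulate alternative splicing in muscle was followed through MyoD-driven reprogramming of mouse fibroblasts, namely Rbfox1, Rbfox2, Mbnl1, Mbnl2, Mbnl3, Celf1, Celf2, Ptbp1, Rbm20 and Rbm24. The 10 were a named list drawn from 35675 genes and chosen with earlier results of these data known. A gene's level was the sum of the estimated reads of its transcripts. All 10 passed the filter on low counts and were among the 17325 genes tested. Bulk RNA-seq covered 45 mouse libraries in 15 groups of 3. Every group carried the Pax7-nGFP reporter transgene (nuclear GFP expressed with Pax7, the satellite cell transcription factor) on a C57BL6;DBA2 background. Mouse embryonic fibroblasts (MEFs) with a doxycycline-inducible MyoD, the transcription factor that imposes a muscle fate, were profiled untreated. They were profiled again after 2, 4, 6, 8 and 10 days of doxycycline, either alone (labelled myotubes) or together with the compounds F/R/C, which are not spelled out (labelled muscle fibers and progenitor cells). The reference cells were bulk induced myogenic progenitor cells (iMPCs, from MEFs given 13 days of doxycycline and F/R/C and kept in F/R/C medium), iMPCs sorted for Pax7-nGFP, bulk primary myoblasts from skeletal muscle and myoblasts sorted for Pax7-nGFP. The labels do not state that replicates came from separate animals or cultures, so p-values measure only the spread between these libraries.

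Splicing regulators bind short motifs in precursor RNA and decide whether a nearby exon is kept or skipped. RBFOX proteins promote or repress exons depending on the side they bind, MBNL proteins drive the switch from fetal to adult exons in muscle, and CELF proteins favour the fetal pattern and often oppose MBNL. PTBP1 holds many tissue-specific exons silent in proliferating cells. RBM20 controls the splicing of titin, and RBM24 promotes the inclusion of muscle exons.

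Several of these genes carry alternative exons of their own, and the sequences are shown because the shares given further on rest on telling these exons apart. RBFOX genes use a muscle-type exon of 43 bases or a brain-type exon of 40 bases, and the coding exons of Rbfox1 and Rbfox2 are shown in transcript orientation with the bases that differ between the paralogs in capitals. In GRCm38 the 43-base exons lie at chr16:7369801-7369843 (Rbfox1, + strand) and chr15:77091812-77091854 (Rbfox2, - strand).
Rbfox1 exon of 43 bases: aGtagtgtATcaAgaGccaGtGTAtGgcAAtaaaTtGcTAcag
Rbfox2 exon of 43 bases: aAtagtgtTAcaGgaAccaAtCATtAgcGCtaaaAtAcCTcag
Rbfox1 exon of 40 bases: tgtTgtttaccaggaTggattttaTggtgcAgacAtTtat
Rbfox2 exon of 40 bases: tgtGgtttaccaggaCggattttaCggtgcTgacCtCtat
The 43-base exons differed at 16 bases (62.8% identical) and the 40-base exons at 6 (85.0% identical), so the muscle-type exon is the less alike of the pair. The 40-base exons lie at chr16:7363865-7363904 (+ strand) and chr15:77094451-77094490 (- strand).

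Exons of 4 target genes are described further on, and those of 3 are shown here. Pkm, pyruvate kinase of muscle, uses either exon M1 (chr9:59675029-59675195, + strand), the form of differentiated muscle, or exon M2 (chr9:59675568-59675734, + strand), the form of proliferating cells. PTBP1 is known to repress M1. Capitals mark the 64 bases at which they differ (61.7% identical).
Pkm M1 exon: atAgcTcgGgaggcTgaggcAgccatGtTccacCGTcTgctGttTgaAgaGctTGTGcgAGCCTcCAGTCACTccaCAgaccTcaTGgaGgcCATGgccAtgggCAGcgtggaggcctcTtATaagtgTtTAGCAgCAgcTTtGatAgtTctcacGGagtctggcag
Pkm M2 exon: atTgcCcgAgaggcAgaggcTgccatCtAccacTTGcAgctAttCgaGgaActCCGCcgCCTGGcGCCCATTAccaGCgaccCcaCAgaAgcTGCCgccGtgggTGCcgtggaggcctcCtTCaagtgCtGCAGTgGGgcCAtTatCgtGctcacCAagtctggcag
Mef2d, a muscle transcription factor, has a muscle exon of 21 bases (chr3:88161781-88161801, + strand), and Cacna1s, the calcium channel of the muscle membrane, has a 57-base exon of adult muscle (exon 29 of 44 in Cacna1s-204, chr1:136104570-136104626, + strand). Each is in capitals with 12 flanking transcript bases on each side in lower case.
Mef2d exon of 21 bases: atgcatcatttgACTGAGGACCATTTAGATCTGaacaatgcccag
Cacna1s exon of 57 bases: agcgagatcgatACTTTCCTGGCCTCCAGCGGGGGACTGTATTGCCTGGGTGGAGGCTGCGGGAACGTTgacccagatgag
The exon of the remaining target, Ryr1, the calcium release channel, has 15 bases (exon 70 of 106 in Ryr1-202, chr7:29056234-29056248, - strand).

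Library totals ran from 15.6 M to 36.3 M estimated reads, with a median of 22.1 M. 3 libraries stood apart in ways that touch results below. The first MEF library held Myod1 at 8.84 CPM (read counts relative to the TMM-scaled library size) against 1.07 and 0.761 CPM in the others, and 12 proliferation genes summed to 1139 CPM against 441 and 427. The third bulk myoblast library held 12 differentiated muscle genes at 1165 CPM in sum against 33394 and 19270.5 CPM. The second MyoD library of day 10 had 60.3 CPM of proliferation genes against 521 and 478, and the second MyoD library was lowest on every day. The arms were not matched in Myod1. On day 2 it stood at 1998, 3575 and 2303 CPM with MyoD alone and at 800, 1353 and 723 CPM with F/R/C. On day 10 it was at 742, 2024 and 622 against 607, 992 and 777 CPM. The part of Myod1 in the differences between arms was not tested. The 6 sorted libraries were quantified by the authors with another fragment-length setting than the unsorted ones (median length minus effective length plus 1 of 180.03 against 152.81 bases). The effect of sorting cannot be told apart from that of this setting.

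Rbm24 and Rbm20 were nearly absent from MEFs and appeared within 2 days of MyoD. Rbm24 (chr13:46418434-46431095, + strand) stood at 3.91, 0.139 and 0.0634 CPM in the 3 MEF libraries and at 322, 457 and 399 CPM on day 2 of MyoD. In the F/R/C arm its level was 324, 479.6 and 368 CPM on that day, so the arms overlapped and both were far above MEFs. The log2 fold change from MEFs was 8.09 ± 0.77 (SE; adjusted p = 9.4e-10) with MyoD and 8.08 ± 0.77 (adjusted p = 1.8e-09) with F/R/C, by edgeR's quasi-likelihood test with Benjamini-Hochberg adjustment over all genes. The size of this change hung on the first MEF library, which held 89 of the reads against 3 and 1 in the others, and without it the fitted MyoD value was 11.78. Rbm20 (chr19:53677306-53867080, + strand) had 18, 10 and 6 reads in the MEF libraries, or 0.791, 0.465 and 0.380 CPM. On day 2 it reached 70.4, 100.1 and 98.6 CPM with MyoD and 36.3, 54.3 and 41.9 CPM with F/R/C, every library far above MEFs (log2 fold change 7.31 ± 0.57, adjusted p = 2.0e-11, and 6.29 ± 0.55, adjusted p = 4.5e-10).

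The arms then parted for Rbm24. With MyoD alone it stood at 74.5, 194 and 59.7 CPM on day 10, a fall from day 2 of 1.84 ± 0.57 on the log2 scale (adjusted p = 0.0319), a call that ended without any 1 of 4 libraries (adjusted p up to 0.137). In the F/R/C arm the level was 271, 352 and 296 CPM on day 10, which differed from day 2 by -0.35 ± 0.55 (adjusted p = 0.671). Every F/R/C library was above every MyoD library on days 4, 6, 8 and 10. The difference was called on day 8 (log2 1.53 ± 0.56, adjusted p = 0.0348) and day 10 (1.48 ± 0.56, adjusted p = 0.0331), and over the average of the 5 days (1.11 ± 0.25, adjusted p = 2.6e-04). It was not called on day 4 (1.12 ± 0.56, adjusted p = 0.143) or day 6 (1.40 ± 0.56, adjusted p = 0.0596). In a fit of the compared groups alone the adjusted p was 0.0041 on day 4 and 0.00367 on day 6, and with the replicate number as a block it was 0.0473 on day 6. Leaving out single libraries ended the day 8 and day 10 calls, with adjusted p up to 0.148 and 0.139.

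The Rbm24 promoter is shown because Rbm24 had the largest fitted log2 change of the 10 members on day 2. The 250 bases before the RefSeq start (chr13:46418050-46418299, GRCm38.p6, + strand) hold 2 matches to the E-box letters CANNTG, in capitals, of which the first is CAGGTG. MyoD binds E-boxes, and no binding was measured in these data.
Rbm24 promoter: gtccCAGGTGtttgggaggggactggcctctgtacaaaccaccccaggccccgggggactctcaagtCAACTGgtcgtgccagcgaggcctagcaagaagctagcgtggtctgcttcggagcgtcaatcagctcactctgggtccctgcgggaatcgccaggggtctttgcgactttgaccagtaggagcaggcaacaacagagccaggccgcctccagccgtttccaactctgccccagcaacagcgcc
CANNTG was searched on both strands and was found in 66.0% of 27025 RefSeq promoters of the same length, and CAGGTG in 17.1%. RefSeq entries matched 8 members with 14 promoters, 8 of them (57.1%) with CANNTG. These matches are letters in a window, not measured sites, and Rbm20 and Rbfox2 had no entry.

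**Figure D1:**
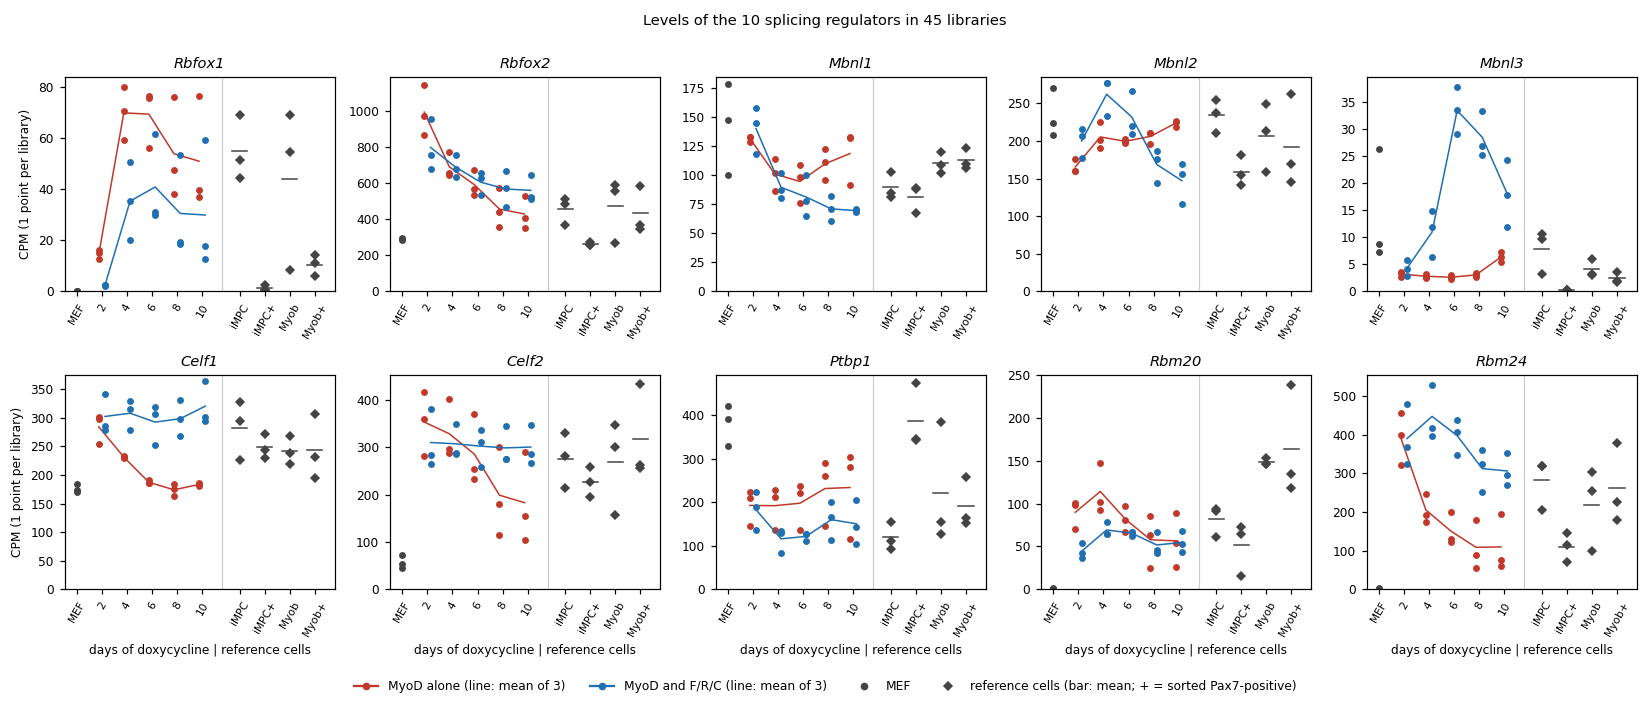
Level of each member in CPM (vertical axis, from 0) against days of doxycycline, with MEFs at the left and reference cells at the right; each point is 1 library, lines join means of 3 libraries and bars mark means of reference groups. Rbm24 with F/R/C had a mean of 448 CPM on day 4 and 306 on day 10, when MyoD alone had a mean of 109.5. Mbnl3 peaked at 33.5 CPM on day 6 with F/R/C.

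Rbfox1 (chr16:5885355-7411526, + strand) was at the floor in MEFs, with 1, 3 and 1 reads. On day 2 it stood at 16.1, 12.6 and 14.9 CPM with MyoD and at only 2.23, 2.53 and 2.72 CPM with F/R/C. The groups did not overlap, and the difference of -2.54 ± 0.60 on the log2 scale (adjusted p = 0.00636) was the only one called among the members on that day. Against MEFs the ratio of means was 177 (95% exact Poisson interval from the 5 MEF reads 75.7 to 544) with MyoD and 30.3 (13.0 to 93.4) with F/R/C. By day 10 the libraries held 39.6, 76.5 and 36.8 CPM with MyoD and 12.6, 17.9 and 59.2 CPM with F/R/C, so the groups overlapped (difference -0.77 ± 0.54, adjusted p = 0.27). Over the 5 days Rbfox1 was lower with F/R/C by -1.17 ± 0.25 (adjusted p = 1.3e-04), in 13 of 15 same-numbered library pairs. The third F/R/C library was the high one, and without it the day 10 difference was -1.74 (adjusted p = 0.02).

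Rbfox2 (chr15:77078990-77307004, - strand), its broadly expressed paralog, was already present in MEFs at 286, 297 and 291 CPM. It rose to 864, 1142 and 973 CPM on day 2 of MyoD (log2 1.77 ± 0.23, adjusted p = 3.1e-07) and to 757, 955 and 680.2 CPM with F/R/C (1.45 ± 0.23, adjusted p = 8.4e-06). With MyoD it then fell by 1.21 ± 0.23 to 406, 529.8 and 352 CPM on day 10 (adjusted p = 5.1e-04). The F/R/C libraries held 513, 645 and 522 CPM on day 10, still above MEFs (0.94 ± 0.22, adjusted p = 7.2e-04). The arms overlapped on all 5 days, and the average difference was 0.08 ± 0.10 (adjusted p = 0.485).

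Celf2 (chr2:6539694-7509563, - strand) rose with MyoD from 54.02, 73.2 and 44.95 CPM in MEFs to 282, 418 and 361 CPM on day 2. The log2 fold change was 2.62 ± 0.33 (adjusted p = 2.4e-07), with no overlap. In the F/R/C arm it reached 265, 382 and 284 CPM (2.43 ± 0.33, adjusted p = 9.4e-07) and was at 287, 348 and 268 CPM on day 10. MyoD alone had 154, 291 and 104 CPM on day 10, a fall of 0.95 ± 0.32 from day 2 that was called (adjusted p = 0.0486). It was not called without any 1 of 4 libraries (adjusted p up to 0.236), with RLE size factors (0.0517), without the filter (0.0618) or in the fit of those groups alone (0.158). The difference between the arms on day 10 was 0.72 ± 0.32 (adjusted p = 0.0674), and without the second MyoD library it was 1.27 (adjusted p = 0.00316).

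Celf1 (chr2:90940382-91019497, + strand) separated the arms from day 4 onward. In MEFs it stood at 185, 169.9 and 174 CPM, and on day 2 at 255, 301 and 298 CPM with MyoD and 279, 343 and 286 CPM with F/R/C. Both arms had risen from MEFs (0.69 ± 0.14, adjusted p = 2.1e-04, and 0.78 ± 0.14, adjusted p = 5.0e-05). On day 10 it was back to 181, 186 and 184 CPM with MyoD and at 295, 366 and 302 CPM with F/R/C. No F/R/C library overlapped a MyoD library on days 4, 6, 8 or 10. The log2 difference was 0.41 ± 0.14 on day 4 (adjusted p = 0.0267), 0.64 ± 0.14 on day 6 (adjusted p = 9.0e-04), 0.78 ± 0.14 on day 8 (adjusted p = 9.6e-05) and 0.81 ± 0.14 on day 10 (adjusted p = 3.7e-05). The day 4 call ended without any 1 of 3 libraries (adjusted p up to 0.0842). The difference on day 10 exceeded that on day 2 by 0.72 ± 0.19 (adjusted p = 0.0216), but not past the threshold without the first F/R/C library of day 2 (0.66, adjusted p = 0.0692) or the second of day 10 (0.61, adjusted p = 0.0881).

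Ptbp1 (chr10:79854427-79864771, + strand) was high in MEFs, at 392.3, 421 and 329 CPM, and lower in every library of the time course. It fell by 0.98 ± 0.36 on day 2 of MyoD (209, 146 and 222 CPM, adjusted p = 0.0327) and by 1.06 ± 0.36 with F/R/C (189.9, 135 and 223 CPM, adjusted p = 0.0232). Both calls ended without either of the first 2 MEF libraries or the second library of the arm (adjusted p up to 0.145 and 0.124). The F/R/C arm was still down on day 10, at 204, 144 and 103 CPM (-1.34 ± 0.37, adjusted p = 0.00261), while MyoD alone on day 10 was not called (281, 116 and 304 CPM, -0.70 ± 0.36, adjusted p = 0.139). Between arms no single day was called, and the average of the 5 days was -0.54 ± 0.16 (adjusted p = 0.00466), lower in 12 of 15 same-numbered pairs. The second MyoD library was the lowest of its group on every day and is the one with few proliferation transcripts. The part of cell division in these levels was not tested.

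The MBNL genes went apart from one another. Mbnl3 (chrX:51117269-51206532, - strand), the family member linked to muscle precursors, stood at 3.11, 3.38 and 2.72 CPM with MyoD on day 8 and at 33.5, 25.2 and 27.0 CPM with F/R/C. The arms did not overlap on days 4, 6, 8 and 10. The log2 difference was 1.96 ± 0.41 on day 4 (adjusted p = 6.5e-04), 3.66 ± 0.43 on day 6 (adjusted p = 5.3e-07), 3.22 ± 0.42 on day 8 (adjusted p = 2.6e-06) and 1.5 ± 0.4 on day 10 (adjusted p = 0.00303). In the F/R/C arm Mbnl3 rose 2.06 ± 0.4 from day 2 to day 10 (adjusted p = 4.1e-04). In MEFs it stood at 26.3, 8.87 and 7.35 CPM, and the high value was in the library that also held the most Myod1. The change from MEFs to day 10 of MyoD was -1.15 ± 0.39 (adjusted p = 0.0257), but -0.35 (adjusted p = 0.534) without that library. For F/R/C on day 10 it was 0.35 ± 0.39 (adjusted p = 0.467), and 1.15 (adjusted p = 0.0137) without it.

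Mbnl1 (chr3:60472830-60629750, + strand), the main MBNL of muscle, is the first of the others. It stood at 101, 148 and 179 CPM in MEFs and at 132, 91.8 and 133 CPM on day 10 of MyoD, which overlapped (-0.26 ± 0.18, adjusted p = 0.28). In the F/R/C arm it was at 68.4, 69.7 and 70.7 CPM on day 10, below every MyoD library of that day. The difference between arms was -0.77 ± 0.18 (adjusted p = 0.00109), and from MEFs the fall was -1.03 ± 0.18 (adjusted p = 1.9e-05). Mbnl2 (chr14:120275669-120431697, + strand), its paralog, changed sides between arms. On day 2 its levels were 215, 207 and 178 CPM with F/R/C and 176, 160.2 and 160.3 CPM with MyoD, and on day 10 they were 156, 116 and 169.9 against 219, 226 and 227 CPM. The arms did not overlap on any of the 5 days, F/R/C being higher on days 2, 4 and 6 and lower on days 8 and 10. The share of all genes without overlap was not computed, so this only describes the libraries. Only the day 10 difference was called (-0.60 ± 0.17, adjusted p = 0.00501), and its change from day 2 was -0.88 ± 0.24 (adjusted p = 0.0225). That of Mbnl1 was -0.86 ± 0.25 (adjusted p = 0.0324). Leaving out 1 library ended the Mbnl1 call in 9 of 12 cases (adjusted p up to 0.113) and the Mbnl2 call in 4 of 12 (up to 0.0933), and without the filter both ended (0.11 and 0.0747). The Mbnl2 difference on day 10 was -0.46 (adjusted p = 0.0558) without the second F/R/C library and -0.54 (0.0513) in the fit of the compared groups alone.

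Counts of members called are set beside the share of all 17325 genes called in the same comparison. Because the members were chosen with earlier results of these data known, the counts describe them and are no test of the list. On day 2 of MyoD 9 of 10 were called, 6 higher and 3 lower, where 36.5% of all genes were called, 20.5% higher and 15.9% lower, and 8 of 10 with F/R/C against 34%. On day 10, 5 of 10 were called with MyoD against 29.4% and 9 of 10 with F/R/C against 53.2%. Within MyoD, 5 of 10 changed from day 2 to day 10 (10.5% of all genes), and within F/R/C 4 of 10 (27.5%). Leaving out 1 library at a time gave 2 to 4 calls within MyoD in place of 5.

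Between the arms the number of members called was 1 on day 2 (background 8.09%), 2 on day 4 (23.2%), 2 on day 6 (26.8%), 4 on day 8 (33.2%) and 5 on day 10 (41.0%). Over the average of the 5 days it was 7 (61.5%), 3 higher (28.7% of all genes) and 4 lower (32.8%), and the Rbm20 call (-0.45 ± 0.18, adjusted p = 0.0284) ended without any 1 of 11 libraries. The change of the F/R/C effect from day 2 to day 10 was called for 3 (8.65%), and single left-out libraries gave 0 to 4. Marker lists moved between the arms as well. On day 10, 12 fibroblast genes summed to 30529, 14005 and 20730 CPM with MyoD and to 3333, 1447.5 and 5470.5 CPM with F/R/C, but the genes of the list did not move as one. On that day 3 of the 12 were lower (Fn1 at -4.58, Col1a2 at -2.61 and Thy1 at -2.04), 1 was higher (Lum at 3.56) and 8 were not called, and over the average of the 5 days 4 were higher and 3 lower. Of 12 proliferation genes, 8 were higher with F/R/C on day 10 and none lower (median log2 difference 1.47), and over the average all 12 were higher (median 1.36). The 12 differentiated muscle genes had a median difference of -0.13 on day 10, and 1 of them was lower over the average. In bulk samples fewer cells of a type and less RNA per cell cannot be told apart, and the part of cell makeup in these differences was not tested. Across the pairs of same-numbered libraries, Celf1, Mbnl3 and Rbm24 were each higher with F/R/C in 14 of 15. The pairs are 3 replicate numbers on 5 days, so they are not independent, and the share of all genes with as many was not computed. The same limits hold for the pair counts of Rbfox1 and Ptbp1. Nor was the share of all genes whose groups did not overlap computed for any comparison, so lack of overlap in a member is a description only.

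**Figure D2:**
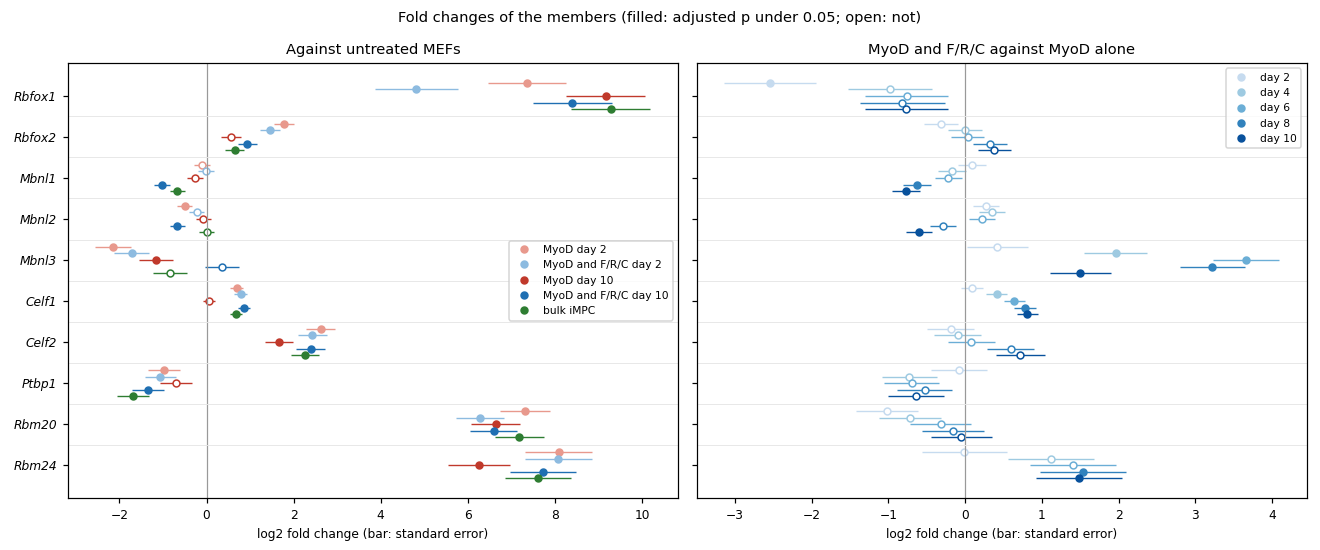
Log2 fold changes (horizontal axis) of the 10 members with their standard errors, against MEFs on the left and MyoD with F/R/C against MyoD alone by day on the right; filled points passed an adjusted p under 0.05. Celf1, Mbnl3 and Rbm24 lie to the right of 0 on the later days, and Mbnl1 lies to the left on days 8 and 10 (-0.63 and -0.77).

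The reference cells set Rbfox1, Mbnl3 and Ptbp1 apart. Sorted Pax7-positive iMPCs held Rbfox1 at 0.650, 2.42 and 0.724 CPM against 69.1, 44.5 and 51.6 CPM in bulk iMPCs. Mbnl3 stood at 0.303, 0.364 and 0.362 CPM against 10.7, 9.70 and 3.3 CPM, while Ptbp1 was higher, at 473, 344 and 343 CPM against 92.1, 155 and 109.7 CPM. None of these groups overlapped. The log2 differences were -5.41 ± 0.68 for Rbfox1 (adjusted p = 2.2e-07), -4.5 ± 0.48 for Mbnl3 (adjusted p = 2.0e-08) and 1.70 ± 0.37 for Ptbp1 (adjusted p = 3.4e-04). In all, 6 members were called, with a background of 48.7%, and the Rbm24 call (-1.36 ± 0.56, adjusted p = 0.0438) ended without any 1 of 4 libraries (up to 0.147). Differentiated muscle genes summed to 1414, 1949 and 1466 CPM in the sorted cells and to 29268, 22483 and 24178 CPM in bulk iMPCs. By gene, 10 of 12 of them and 7 of 12 fibroblast genes were lower and none higher, and 3 of 12 proliferation genes were higher and none lower. The part of these lists in the members' differences was not tested.

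Sorted Pax7-positive iMPCs also differed from sorted Pax7-positive myoblasts in 6 members, with a background of 47.5%. In the same comparison 9 of 12 differentiated muscle genes were lower and none higher (median log2 difference -2.38), 6 of 12 proliferation genes were higher and none lower (1.29), and 4 of 12 fibroblast genes were higher and none lower (2.21). The part of these lists in the differences of the members was not tested. Rbfox1 was lower (6.11, 11.1 and 14.1 CPM in myoblasts, -3.01 ± 0.63, adjusted p = 2.0e-04) and Mbnl3 was lower (3.64, 1.84 and 1.90 CPM, -2.83 ± 0.47, adjusted p = 1.2e-05). Rbm20 stood at 15.3, 64.5 and 73.1 CPM in iMPCs and 119, 135 and 238 CPM in myoblasts, with no overlap (-1.69 ± 0.41, adjusted p = 0.00109; 0.0699 in the fit of those groups alone). Ptbp1 was higher, with 258, 151 and 164 CPM in the myoblasts (1.02 ± 0.36, adjusted p = 0.0207), but the call ended without any 1 of 3 libraries (adjusted p up to 0.088). Rbfox2 and Mbnl1 were lower by -0.72 ± 0.22 (adjusted p = 0.0087) and -0.47 ± 0.18 (adjusted p = 0.0304). The Mbnl1 call ended without the first iMPC library (-0.35, adjusted p = 0.153) or the third myoblast library (-0.41, adjusted p = 0.122). Rbfox2 lost its call without the third myoblast library (-0.44, adjusted p = 0.11), which also held the most differentiated muscle RNA of its group (15563 CPM against 4426 and 5537).

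Bulk iMPCs were set against day 10 of F/R/C, MEFs and bulk myoblasts. Against day 10 of F/R/C, 2 of 10 were called with a background of 20.5%, Mbnl2 at 255, 210.1 and 237 CPM (0.67 ± 0.17, adjusted p = 0.00498) and Mbnl3 (-1.19 ± 0.39, adjusted p = 0.0274). The Mbnl3 call ended without any 1 of 3 libraries (adjusted p up to 0.153) and that of Mbnl2 without the second F/R/C library (0.52, adjusted p = 0.057), and without the third F/R/C library Rbfox1 was higher (1.85, adjusted p = 0.0253). Against MEFs, 8 of 10 bulk iMPC values were called with a background of 54.2%, among them Rbm20 (7.18 ± 0.56, adjusted p = 2.6e-11) and Ptbp1 (-1.68 ± 0.37, adjusted p = 2.9e-04). Against bulk myoblasts none of the 10 was called by edgeR's quasi-likelihood test, where 32.9% of all genes were, 3 had an unadjusted p under 0.05 and DESeq2 called 2 (Ptbp1 and Mbnl3). The bulk myoblast libraries were uneven, with Rbfox1 at 69.1, 54.5 and 8.26 CPM and Ptbp1 at 126, 155 and 385 CPM. Without the third of them Mbnl3 was called (1.31, adjusted p = 0.0287). Sorted against bulk myoblasts differed only in Rbfox1 (-2.08 ± 0.57, adjusted p = 0.0154, background 11.9%), which was not called in the fit of those groups alone (adjusted p = 0.477) or without any 1 of 3 libraries (up to 0.0942).

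Levels of different genes are compared per length, in TPM (relative abundance corrected for transcript length) from the deposited tables. In MEFs Ptbp1 had the highest mean level of the members at 347 TPM, ahead of Rbfox2 at 125 and Mbnl2 at 123 TPM. On day 2 of MyoD the order had turned, with Rbfox2 at 443 and Rbm24 at 430.2 TPM and Ptbp1 at 157 TPM. On day 10 of F/R/C Rbm24 and Rbfox2 led at 334 and 293 TPM (SD 40.5 and 41.9). On day 10 of MyoD Ptbp1 and Rbfox2 led at 213 and 204 TPM (SD 97.1 and 41.1), an order within the spread of the libraries. Within a gene, neighbours in the order of the 15 group means overlapped in 12 of 14 cases for Rbfox1, Rbfox2 and Mbnl3, in all 14 for Mbnl1 and Mbnl2 and in 13 of 14 for the others. For Ptbp1 the gap without overlap lay below MEFs, and for Rbm24 it lay above MEFs.

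Exon shares were summed from the deposited TPM of annotated transcripts that carry the exon, over those that carry or skip it. They describe how reads were divided between annotated transcripts and were not tested, and several transcripts with the exon are short (1041 bases for Rbfox2-207 with the muscle-type exon, 6573 for Rbfox2-203 without), so the level is not an inclusion rate. The Rbfox2 muscle-type share was 19.8%, 16.3% and 9.8% in the MEF libraries and 39.9%, 41.4% and 41.3% on day 2 of MyoD. It was 43.2%, 44.7% and 45.9% on day 10 of F/R/C and 35.8%, 44.5% and 38.0% on day 10 of MyoD, all above MEFs. As a share of estimated counts it was 2.62% in MEFs and 8.84% on day 2, with MEFs again the lowest group. Sorted cells held 29.9% ± 1.39 (SD, n = 3) in iMPCs and 34.4% ± 1.09 in myoblasts, and bulk iMPCs 32.2% ± 1.79. Rbfox1 itself had its muscle-type exon at 56.1% ± 5.22 on day 2 of MyoD, 55.7% ± 1.34 on day 10 and 34.7% ± 3.22 in bulk iMPCs.

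Exon shares of target genes differed in timing. The Mef2d exon was at 6.9% in the first MEF library and at 0 in the others, and at 22.1%, 23.1% and 25.2% on day 2 of MyoD. It stayed between 14.6% and 26.4% in all later libraries of both arms. The Cacna1s exon started low, at 6.4%, 2.5% and 3.2% on day 2 of MyoD and 3.8%, 6.6% and 3.4% with F/R/C. It stood at 36.5%, 37.4% and 38.6% on day 10 of MyoD and at 44.3%, 43.05% and 59.3% with F/R/C, with no overlap of arms on days 4, 6 and 10. Bulk iMPCs held 52.3% ± 7.34 and bulk myoblasts 35.3% ± 1.94. The Ryr1 share went from 34.3% ± 0.57 to 44.0% ± 4.94 with MyoD and from 31.6% ± 3.66 to 49.6% ± 7.94 with F/R/C. Shares of estimated counts were close to those of TPM for Cacna1s (38.2% on day 10 of MyoD) and Ryr1 (43.9%). In these 2 genes the main transcripts with and without the exon are of near-equal length (6104 against 6018 and 15358 against 15352 bases). For Mef2d they have 1791 against 5401 bases and for Rbfox1 1407 against 3061, so those TPM shares are not inclusion rates.

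**Figure D3:**
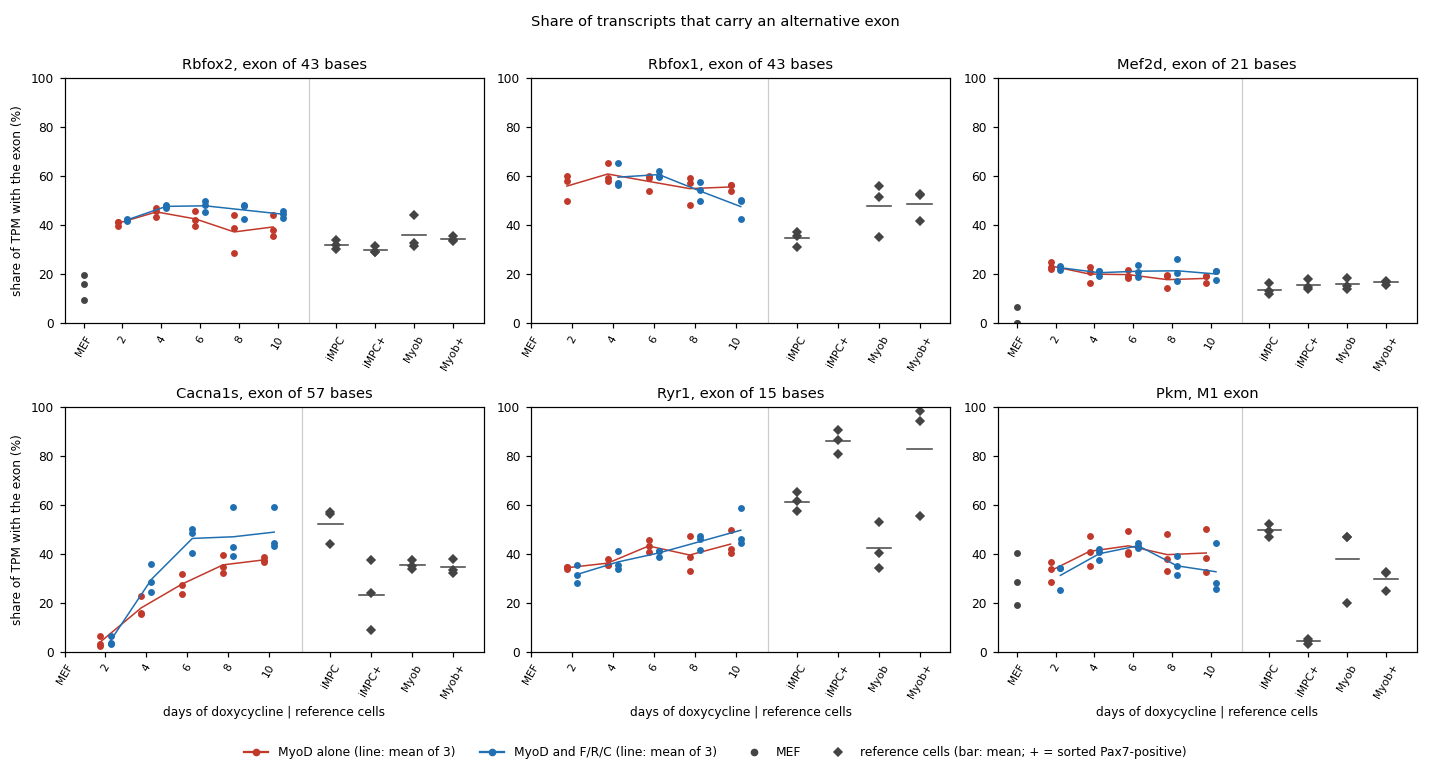
Share of transcript TPM with the exon (vertical axis, percent) in 6 genes against days of doxycycline and in reference cells, 1 point per library; groups with under 100 estimated reads in a library are left out. Rbfox2 and Mef2d are already high on day 2, while Cacna1s climbs from 4.03% on day 2 to 37.5% on day 10 of MyoD and 48.9% with F/R/C.

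The Pkm M1 share is given beside the level of Ptbp1 in the same library, for MEFs, day 10, iMPCs and bulk myoblasts only. Sorted myoblasts and the earlier days of doxycycline are not listed here, so the values below describe no trend over all libraries. The main transcripts with and without M1 have 2041 and 2432 bases, so this TPM share is not an inclusion rate. A relation between Ptbp1 and M1 was not tested. Sorted iMPCs, with Ptbp1 at 473, 344 and 343 CPM, had M1 shares of 4.3%, 5.4% and 3.2%, below those of every other group. Bulk iMPCs, with Ptbp1 at 92.1, 155 and 109.7 CPM, had 52.3%, 47.0% and 49.3%. In bulk myoblasts M1 was 46.7%, 46.7% and 20.0%, and the library with 20.0% was the one with 385 CPM of Ptbp1. On day 10 of F/R/C M1 was 25.7%, 28.0% and 44.3% where Ptbp1 was 204, 144 and 103 CPM. On day 10 of MyoD it was 38.2%, 50.2% and 32.6% where Ptbp1 was 281, 116 and 304 CPM. MEFs, with high Ptbp1, were not as low as sorted iMPCs, with 19.1%, 28.4% and 40.2% at 392.3, 421 and 329 CPM of Ptbp1. Proliferation genes summed to 2296, 2335 and 2870.0 CPM in sorted iMPCs and to 745, 1576 and 1158 in bulk iMPCs, and their part was not tested.

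**Figure D4:**
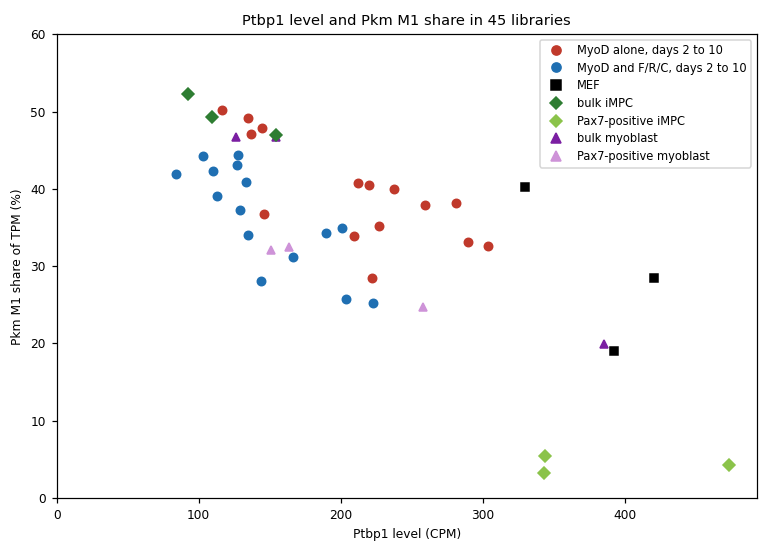
Ptbp1 level in CPM (horizontal axis) against the Pkm M1 share of TPM in percent (vertical axis), 1 point per library for all 45 libraries. Sorted iMPCs lie at the bottom right (3.2% to 5.4%) and bulk iMPCs at the top left (47.0% to 52.3%); libraries of a group share their treatment, so the points are not independent.

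For members whose group means span at least 4-fold, the genes of most similar profile were found by Pearson's r of log2(CPM + 0.5) over the 15 group means, among 17325 genes. The groups share libraries within themselves, so r is a description. Rbfox1 was most like Coq8a (r = 0.982), Apobec2, Atcayos, Klhl31 and Txlnb. Rbm24 was most like Eya4 (0.974) and then Celf2 (0.969), followed by Fgf11, Cdh15 and Dapk2, and Celf2 was most like Pknox2 (0.973), Rbm24, Pnmal2, Dapk2 and Ube2d1. Rbm20 was most like Zbtb20 (0.964), Zbtb7c, Lrrn1, Chrnd and Megf10. Mbnl3 had looser matches, with Mst1r (0.902), Duox1, Dusp9, Rspo4 and Pthlh.

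Other splicing factors were counted in the same libraries. Of 25 tissue-regulated factors on a second list 20 were tested, and of 12 SR proteins, which promote exon inclusion in most cells, all 12. On day 2 of MyoD 5 of the 20 were higher and 4 lower (background 36.5%), with Celf5 at -2.94, Rbm47 at -2.82 and Rbm38, an RNA-binding factor of muscle differentiation, at 2.52. The median log2 change was -0.11, against 1.23 for the 10 members and 0 for all genes. Members and lists were chosen with earlier results of these data known, so these medians are a description only. Of the SR proteins 2 fell and none rose. On day 10 of F/R/C 6 of 12 SR proteins were higher and none lower, beside 53.2% of all genes called, with a median of 0.48 against 0.08 for all genes. Against MyoD on that day, where 41.0% of all genes were called, 9 of 12 SR proteins were higher and none lower (median 0.74 against -0.07). Of the 20 other factors 7 were higher and 3 lower, led by Nova2 (-2.18), Celf4 (-1.86) and Raver2 (1.78). Sorted iMPCs against sorted myoblasts had 11 of 12 SR proteins higher and none lower, beside 47.5% of all genes called (median 0.99 against -0.07), with Celf4 (-3.26), Celf5 (-3.13) and Esrp2 (-2.73) the largest among the other factors.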

How the data were processed

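Libraries were stranded, poly-A selected and sequenced from 1 end, per the labels' protocols. Per the submitters' processing notes the tools were bcl2fastq 2.19, Trimmomatic 0.36, kallisto 0.44 and edgeR 3.28, with build GRCm38.p6. The authors deposited, per transcript, estimated counts (not normalised) and TPM (scaled to length, keeping no depth). Of 121843 transcripts 121104 matched GENCODE M21, and counts were summed per gene and rounded. The members and lists were chosen with earlier results of these data known.

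All 45 libraries entered 1 quasi-likelihood fit (edgeR 4.0.16, R 4.3.3) after TMM scaling and filterByExpr (30 residual degrees of freedom), and a call was a Benjamini-Hochberg adjusted p under 0.05. Alternatives were RLE size factors, DESeq2 1.42.0, no filter, a replicate block, only the compared groups, a 2-fold minimum and leaving out each library. The script was tested on simulated data. Each SE of a log2 fold change was the absolute change divided by the square root of the quasi-likelihood F statistic, not a separate estimate. Text names all 10 members, and from the other lists up to 3 called genes with the largest change per comparison, and up to 5 genes of most similar profile. Intervals cover counting error only. Same-numbered libraries deviated together (each pair's correlation over 0.1) between arms on days 2, 4 and 6 (mean r 0.52, 0.4 and 0.37). They also did so between days 2 and 10 of MyoD (0.4), and in these comparisons the numbers were read as pairing the samples. The main fit did not use this pairing, which entered only in the alternative with a replicate block. Between arms on days 8 and 10 mean r was 0.21 and 0.22, with the lowest pairs at 0.05 and 0.03, so pairing there is uncertain. Replicates differed by more than counting noise. Exon shares of Clcn1 (at most 60.9 reads per library) and of Insr (its transcript with the exon is 672 bases long against 9355) were left out. Shares in Mbnl1, Mbnl2, Mbnl3, Ptbp1, Ptbp2, Atp2a1, Tnnt2 and Fn1 were computed but are not described. Over 15 exons with at least 100 estimated reads per library, the median absolute difference between MEFs and the mean of both arms on day 10 was 6.16 percentage points. From estimated counts it was 2.98, so the exons described do not stand for all those computed.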

Additional observations from a re-analysis of the deposited data

Results flagged for a closer look

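The effect of F/R/C differed between day 10 and day 2 in 3 members, by the interaction term of the edgeR fit. Celf1 went from 0.09 ± 0.14 to 0.81 ± 0.14 on the log2 scale, a change of 0.72 ± 0.19 (adjusted p = 0.0216), and without the second F/R/C library of day 10 it was 0.61 (adjusted p = 0.0881). Mbnl1 went from 0.09 ± 0.18 to -0.77 ± 0.18, a change of -0.86 ± 0.25 (adjusted p = 0.0324). Leaving out any of 9 of the 12 libraries ended that call, with adjusted p up to 0.113. Mbnl2 went from 0.27 ± 0.17 to -0.60 ± 0.17, a change of -0.88 ± 0.24 (adjusted p = 0.0225), and without the second F/R/C library of day 10 it was -0.73 (adjusted p = 0.0933).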

How the results depend on the processing

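Of 190 pairs of member and comparison, 87 were called. The alternatives other than leaving out a library gave the same outcome in 1067 cases. They ended a call in 56, added one in 17 and reversed none. For leaving out a library the cases were 1332, 88, 20 and 0. Pairs not called in either fit count as the same outcome, so 1067 and 1332 are not numbers of calls kept. The cause was not tested. Fitting only the compared groups gave 3 called members for MyoD day 10 against day 2 (5 in the full fit), 2 between arms on day 2 (1), 4 on day 4 (2), 1 for bulk iMPCs against day 10 of F/R/C (2), 1 against bulk myoblasts (0) and 0 for sorted against bulk myoblasts (1). A 2-fold minimum, which by construction removes calls, left 3 within MyoD, 1 on day 4, 1 on day 6, 2 on day 8, 2 on day 10, 3 over the average of 5 days, 0 for the change of the F/R/C effect, 5 for bulk iMPCs against MEFs and 1 against day 10 of F/R/C. Without the filter, which tests more genes, the change of the F/R/C effect had 1. For bulk iMPCs against bulk myoblasts DESeq2 called 2 and the replicate block 1.

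Leaving out single libraries gave 7 to 9 called members for MyoD day 2 against MEFs, 4 to 5 for MyoD day 10, 6 to 8 for F/R/C day 2 and 9 to 10 for F/R/C day 10. Within the arms it gave 2 to 4 (MyoD) and 3 to 4 (F/R/C). Between arms it gave 1 on day 2, 1 to 2 on day 4, 2 on day 6, 2 to 5 on day 8, 3 to 7 on day 10, 6 to 7 over the average and 0 to 4 for the change of the effect. Bulk iMPCs had 7 to 9 against MEFs, 1 to 2 against day 10 of F/R/C and 0 to 1 against bulk myoblasts. Sorted iMPCs had 3 to 7 against sorted myoblasts and 5 to 6 against bulk iMPCs, and sorted against bulk myoblasts had 0 to 1.

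With the replicate block, some calls changed where not every same-numbered pair correlated over 0.1. Celf2 between arms on day 10 was called (0.77, adjusted p = 0.0174), with pair correlations of 0.03 to 0.34 (mean 0.22). Rbfox2 for MyoD day 10 against MEFs (0.54, 0.0428) and Ptbp1 for bulk iMPCs against bulk myoblasts (-0.83, 0.0482) were called too. Mbnl2 within F/R/C was no longer called (-0.44, 0.0531). Where every pair correlated over 0.1, the block changed no call but that of Rbm24 on day 6. Exon shares taken from estimated counts instead of TPM moved by more than the replicate SD in 213 cases and by less in 131. Few MEF reads of Rbfox1, Rbm20 and Rbm24 limit the size of their changes.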
